A study of Bos taurus with 24 samples.

Results

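The nuclear genes of oxidative phosphorylation were followed in single bovine oocytes. They were picked by gene symbol alone: the rows whose symbol began with NDUFA, NDUFB, NDUFC, NDUFS, NDUFV, SDH, UQCR, ATP5 or COX4 to COX8, with CYC1 and C14orf2 added and the NDUFAF assembly factors left out. This gave 67 members among the 17071 rows of the expression table. Of these, 29 were placed with complex I, 7 with complex II, 7 with complex III, 11 with complex IV and 13 with complex V. Of the 67, 60 encode structural subunits, and 7 encode assembly factors or associated proteins. ATP5SL is among these 7, and its place with complex V rests on its symbol. A further 25 known subunit symbols matched no row and were not analysed here, among them SDHD, UQCRH, COX5B, COX6A1, COX7C, ATP5E and ATP5O.

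The study asked what microinjection by itself does to the transcriptome of the oocyte. Each of the 24 samples was 1 Bos taurus oocyte, 12 siRNA injected and 12 non-injected, the non-injected ones labelled wild type and no other allele named for either group. Oocytes came from slaughterhouse ovaries and had been stripped of their cumulus cells, and those of the siRNA injected group were injected as germinal vesicle oocytes with a non-specific (scrambled) siRNA and the red tracer Dextran-TRITC, and were kept only if they fluoresced. Both groups were held for 16 h with roscovitine, an inhibitor of cyclin-dependent kinases that delays meiosis, then matured for 22 h and sampled at metaphase II. No oocyte was mock-injected, so the needle, the dextran and the siRNA cannot be told apart. The labels do not say which oocytes came from the same animal, so the spread within a group is the spread between these oocytes.

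Oxidative phosphorylation passes electrons through the inner mitochondrial membrane. Complex I takes them from NADH and complex II from succinate, complex III hands them on to cytochrome c, and complex IV reduces oxygen. Complexes I, III and IV pump protons as they do so, and complex V, the ATP synthase, lets the protons flow back and makes ATP. Most subunits are encoded in the nucleus, while a small core of complexes I, III, IV and V is encoded in mitochondrial DNA. The mammalian oocyte is rich in mitochondria and relies on them for the ATP spent in meiotic maturation.

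Transcripts were measured by CEL-seq2, in which the 3′ end of each poly(A)-primed molecule is tagged with a unique molecular identifier (UMI), so a long and a short mRNA each give 1 tag per molecule and levels were compared between genes without dividing by length. Values are in RPM, for which the reads of each oocyte are scaled to the same total, so they are shares of all tagged molecules of an oocyte. A lower RPM can therefore mean fewer molecules, a shorter poly(A) tail or more of everything else, which cannot be told apart. Depth overlapped between the groups, with 204285 to 382077 UMIs per siRNA injected oocyte and 134080 to 415554 per non-injected oocyte, so that 1 UMI was worth 2.27 to 7.35 RPM. All 13 oocyte markers with a row were detected above the minimum used for testing, with a summed level of 4589 to 7706 RPM in siRNA injected and 3895 to 6962 RPM in non-injected oocytes. Of 20 cumulus and granulosa marker genes, 7 passed that minimum. The 20 rows summed to 381 to 614 RPM in siRNA injected and 389 to 549 RPM in non-injected oocytes. The highest was STAR, which averaged 261 RPM in siRNA injected and 263 RPM in non-injected oocytes. HAS2 followed, at 85.4 RPM in siRNA injected and 87.4 RPM in non-injected oocytes. At the other end, LUM was at 0 in all 24.

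Nearly all of the members were detected in both groups. By the rule each member already had a row, and the matching share over all 17071 rows is not given here. Of the 67 members, 65 were above 0 in at least 6 of 12 siRNA injected oocytes and 65 in at least 6 of 12 non-injected oocytes, and 47 were above 0 in all 24. Levels were mostly modest, with a median over members of 45.1 RPM. There were 9 members with a mean under 10 RPM, 18 between 10 and 30, 24 between 30 and 100, 11 between 100 and 300, and 5 of 300 RPM or more. The most abundant were COX7A2L (724 RPM, rank 202 of 17071), ATP5J (644 RPM, rank 253), NDUFAB1 (445 RPM, rank 398), ATP5G3 (355 RPM, rank 549) and NDUFB6 (346 RPM, rank 565). Of these 5, NDUFAB1 and NDUFB6 belong to complex I, ATP5J and ATP5G3 to complex V, and COX7A2L links complexes into supercomplexes. The least abundant were SDHAF4, with 0 UMIs over the 12 siRNA injected oocytes and 1 UMI over the 12 non-injected oocytes, and ATP5SL, with 1 UMI in each group. A count of 0 over the siRNA injected oocytes allows up to 3 UMIs in all, or a level of 0.899 RPM if not corrected for saturation, a limit that covers counting error only.

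**Figure D1:**
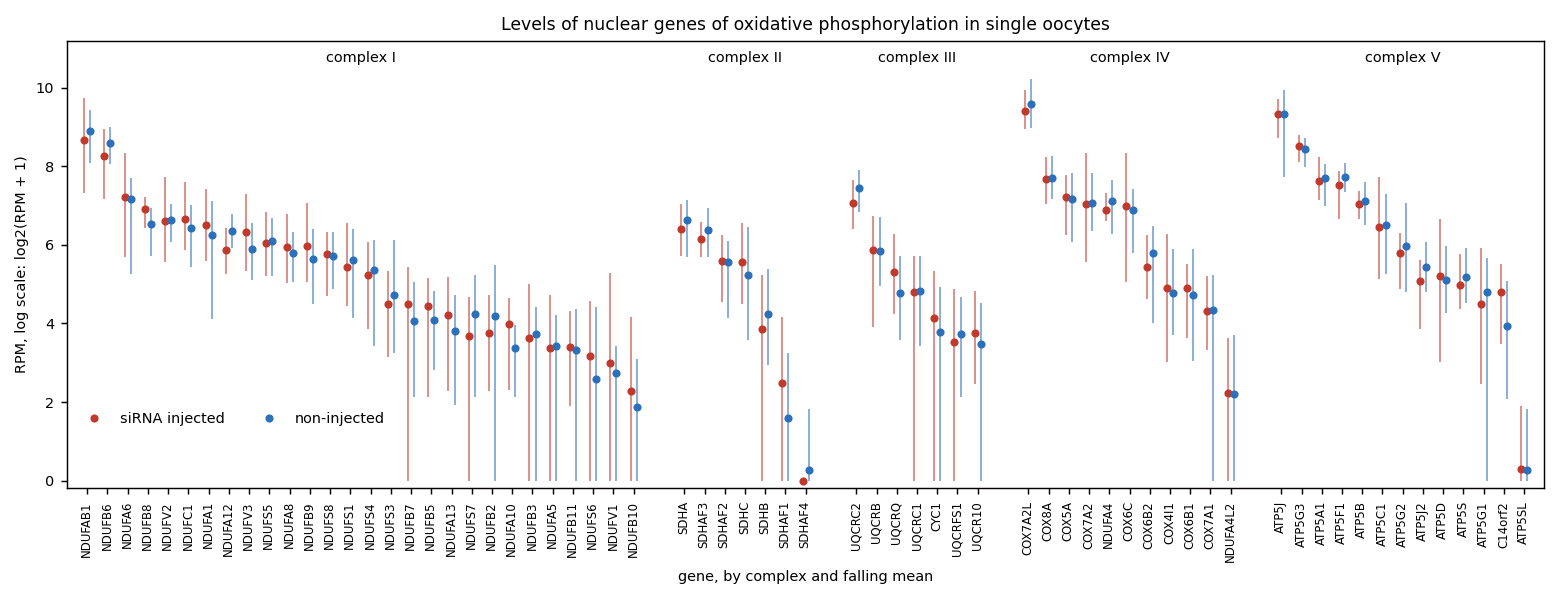
Level of 66 of the 67 genes, grouped by complex and ordered by falling mean, as log2(RPM + 1). Points give the mean of 12 siRNA injected (red) and 12 non-injected (blue) oocytes and lines the lowest to the highest oocyte. The ranges of both groups overlapped for every gene shown above 10 RPM. The matching share over all genes tested is not given here. Within complex I the means differed 136-fold.

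Complex I has a peripheral arm that binds NADH (the N module) and ubiquinone (the Q module), and a membrane arm that pumps protons (the P module). Its 29 members differed 136-fold between the lowest (NDUFB10, 3.27 RPM) and the highest (NDUFAB1). The 7 nuclear core subunits that carry out the redox chemistry made up 15.7% of the summed level of these 29 members, and the 22 accessory subunits made up 84.3%. Accessory subunits with no row and the mitochondrially encoded core subunits are outside this sum. Of the latter, ND1 averaged 4387 RPM in siRNA injected and 3072 RPM in non-injected oocytes, and ND4L 52.1 and 39.3 RPM in the same order. The median subunit of both sets was alike, at 45.1 RPM for the core and 46.8 RPM for the accessory subunits, and the accessory subunits NDUFAB1 and NDUFB6 alone held 39.3% of the sum. NDUFAB1 is the mitochondrial acyl carrier protein, which also serves fatty acid synthesis, and NDUFB6 is an accessory subunit of the membrane arm.

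In the N module, NDUFV1, which binds NADH and flavin, was at 7.03 ± 10.7 RPM in siRNA injected and 5.66 ± 3.53 RPM in non-injected oocytes (SD, n = 12 each here and below), among the lowest in the complex. Its iron-sulphur partner NDUFV2 was more abundant, at 96.0 ± 53.6 RPM in siRNA injected and 98.3 ± 18.1 RPM in non-injected oocytes. NDUFS1, the largest iron-sulphur subunit, lay between them at 42.6 ± 22.1 and 47.6 ± 21.6 RPM in siRNA injected and non-injected oocytes. Thus 3 subunits that sit side by side at the NADH end differed 15.3-fold in measured level. The low end rests on few counts, since NDUFV1 had 44 UMIs over the 24 oocytes and was above 0 in 18 of them. Among accessory subunits of the module, NDUFA12 ran 37.6, 54.2 and 86.0 RPM (lowest, median and highest) in siRNA injected oocytes and 59.5, 80.8 and 110 RPM in non-injected oocytes. Although the groups overlapped, 11 of 12 siRNA injected oocytes lay below the non-injected median. NDUFV3 had the opposite order, with 39.1, 75.8 and 157 RPM in siRNA injected and 33.5, 55.7 and 93.7 RPM in non-injected oocytes, and 11 of 12 siRNA injected oocytes were above the non-injected median. NDUFA6, an LYR-motif protein that holds an acyl carrier protein against the arm, ranged 8.60-fold over the 24 oocytes, with group means of 149 ± 83.2 RPM in siRNA injected and 143 ± 52.8 RPM in non-injected oocytes.

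In the Q module, NDUFS8, an iron-sulphur subunit, averaged 53.5 ± 18.5 RPM in siRNA injected and 51.5 ± 15.5 RPM in non-injected oocytes. NDUFS7, which carries the last iron-sulphur cluster before ubiquinone, was the lowest core subunit of the module, at 11.9 ± 9.17 RPM in siRNA injected and 17.9 ± 10.6 RPM in non-injected oocytes.

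The 16 members placed in the membrane arm held both the top and the bottom of the complex. NDUFAB1 was counted in this arm only, although NDUFA6 also holds an acyl carrier protein against the peripheral arm. NDUFAB1 was spread widely, with 158, 324 and 855 RPM in siRNA injected and 270, 508 and 697 RPM in non-injected oocytes. The highest values were those of siRNA injected oocytes 11 (855 RPM) and 8 (821 RPM), and the lowest was that of siRNA injected oocyte 4. NDUFB6 was narrower, with 144, 311 and 496 RPM in siRNA injected and 266, 378 and 516 RPM in non-injected oocytes, and 11 of 12 siRNA injected oocytes were below the non-injected median. NDUFB8, another membrane-arm subunit, ran 86.0, 119 and 147 RPM in siRNA injected and 51.5, 96.2 and 122 RPM in non-injected oocytes, with 10 of 12 siRNA injected oocytes above the non-injected median. The lowest subunit of the complex with a mean of at least 10 RPM was NDUFB3, at 11.3 ± 9.82 RPM in siRNA injected and 12.3 ± 6.47 RPM in non-injected oocytes.

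Complex II, succinate dehydrogenase, is the one complex with no mitochondrially encoded subunit. Its flavoprotein SDHA ran 51.7, 78.9 and 132 RPM in siRNA injected and 51.0, 102 and 140 RPM in non-injected oocytes, with 10 of 12 siRNA injected oocytes below the non-injected median but ranges that nearly coincided. SDHB, the iron-sulphur subunit, was the lowest of the 3, at 13.6 ± 11.7 RPM in siRNA injected and 18.0 ± 10.2 RPM in non-injected oocytes. SDHC, a membrane anchor, averaged 46.1 ± 21.5 RPM in siRNA injected and 36.5 ± 20.7 RPM in non-injected oocytes. The assembly factors SDHAF3 (70.1 ± 17.6 RPM in siRNA injected and 81.7 ± 23.2 RPM in non-injected oocytes) and SDHAF2 (47.3 ± 17.2 RPM in siRNA injected and 46.5 ± 14.1 RPM in non-injected oocytes) were higher than SDHB, although they act on the subunits and are not part of the enzyme. SDHAF2 attaches flavin to SDHA, and SDHAF3 helps to mature SDHB.

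Complex III was led by UQCRC2, a core protein of its matrix side, with 84.0, 138 and 201 RPM in siRNA injected and 113, 173 and 241 RPM in non-injected oocytes. Only 1 siRNA injected oocyte was above the non-injected median, and the ranges overlapped over most of their length. Its partner UQCRC1 was 5.65-fold lower over the 24 oocytes, at 26.9 ± 15.7 RPM in siRNA injected and 27.3 ± 11.8 RPM in non-injected oocytes, although both proteins sit in the complex together. The redox subunits were low: cytochrome c1 (CYC1) was at 16.6 ± 11.9 RPM in siRNA injected and 12.7 ± 9.47 RPM in non-injected oocytes, and the Rieske protein (UQCRFS1) at 10.5 ± 7.77 RPM in siRNA injected and 12.2 ± 6.34 RPM in non-injected oocytes. Of the small subunits, UQCRB stood at 57.1 ± 28.7 RPM in siRNA injected and 56.9 ± 19.5 RPM in non-injected oocytes, UQCRQ ran 17.8, 38.2 and 76.6 RPM in siRNA injected and 10.9, 24.2 and 51.5 RPM in non-injected oocytes, and UQCR10 was the lowest of the complex at 12.4 ± 6.48 RPM in siRNA injected and 10.1 ± 7.20 RPM in non-injected oocytes. For UQCRQ 9 of 12 siRNA injected oocytes were above the non-injected median.

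Among complex IV genes, COX7A2L, which joins complexes III and IV into supercomplexes and is not counted as a subunit here, was at 676 ± 137 RPM in siRNA injected and 773 ± 175 RPM in non-injected oocytes. It was above its relative COX7A2, a true subunit, in all 24 oocytes, with 84.5 ± 7.13% of their joint level in siRNA injected oocytes and 85.1 ± 4.31% in those non-injected. The most abundant subunits were COX8A (131, 215 and 304 RPM in siRNA injected and 143, 197 and 307 RPM in non-injected oocytes) and COX5A (75.1, 136 and 220 RPM in siRNA injected and 65.9, 131 and 228 RPM in non-injected oocytes), which showed almost the same range in both groups. NDUFA4, first assigned to complex I and now known as a subunit of complex IV, averaged 117 ± 21.3 RPM in siRNA injected and 137 ± 40.7 RPM in non-injected oocytes. COX4I1, a regulatory subunit, was much lower, at 28.9 ± 17.8 RPM in siRNA injected and 26.6 ± 12.6 RPM in non-injected oocytes.

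Several complex IV subunits come in tissue isoforms. For COX6B, the subunit that clamps the dimer on the intermembrane side, the isoform COX6B2, known from mouse and human testis, was above the ubiquitous COX6B1 in 20 of 24 oocytes (10 of 12 siRNA injected and 10 of 12 non-injected). COX6B2 ran 23.5, 36.8 and 75 RPM in siRNA injected and 15.2, 55.7 and 88.3 RPM in non-injected oocytes, while COX6B1 ran 11.3, 30.3 and 44.9 RPM in siRNA injected and 7.24, 22.9 and 58.9 RPM in non-injected oocytes. COX6B2 thus held 59.9 ± 11.7% of the joint level in siRNA injected oocytes and 67.2 ± 14.5% in those non-injected, with 41.7 to 88.9% over single oocytes, and its mean over the 24 was 1.77-fold that of COX6B1. Of the other complex IV families, only COX7A and NDUFA4 had rows for both forms, and these were led by the ubiquitous form in all 24 oocytes. The COX4, COX6A, COX7B and COX8 families could not be compared, since COX4I2, COX6A1, COX6A2, COX7B, COX7B2, COX8B and COX8C had no row. COX7A2 held 85.0 ± 7.83% in siRNA injected oocytes and 87.0 ± 5.27% in those non-injected against COX7A1, the heart and muscle form. NDUFA4 held 97.0 ± 3.37% in siRNA injected oocytes and 97.6 ± 2.25% in those non-injected against NDUFA4L2, which is induced by hypoxia in human cells.

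Complex V is a rotary enzyme with a catalytic head (F1), a rotor ring of c subunits and a peripheral stalk that holds the head still. Head subunits were ordered ATP5A1 (alpha), ATP5B (beta), ATP5C1 (gamma) and ATP5D (delta), at 199 ± 51.9, 131 ± 21.4, 86.7 ± 62.0 and 35.7 ± 24.4 RPM in siRNA injected and 206 ± 44.0, 139 ± 34.9, 90.7 ± 42.1 and 33.4 ± 12.6 RPM in non-injected oocytes. The 2 neighbours ATP5B and ATP5C1 overlapped over oocytes, since ATP5C1 reached 211 RPM in siRNA injected oocyte 8. The genes ATP5G1, ATP5G2 and ATP5G3 encode the same mature c subunit, and ATP5G3 supplied most of the mRNA, with 82.9 ± 4.79% of the c-subunit level in siRNA injected oocytes and 79.8 ± 7.54% in those non-injected. ATP5G2 supplied 12.3 ± 2.90% in siRNA injected oocytes and 14.1 ± 4.90% in those non-injected, and ATP5G1 4.77 ± 3.59% in siRNA injected oocytes and 6.06 ± 3.82% in those non-injected. ATP5G3 was also the steadiest member, differing 1.76-fold between the lowest and the highest of 24 oocytes. The sources used here do not say how the authors' counting divided reads shared by near-identical genes, so the split between members of the ATP5G and COX7A2 families is less certain than their sums.

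The peripheral stalk held the most abundant subunit of all 5 complexes. ATP5J (coupling factor 6) ran 424, 662 and 840 RPM in siRNA injected and 212, 706 and 979 RPM in non-injected oocytes. Non-injected oocytes 10 (212 RPM) and 11 (273 RPM) were the lowest of the 24, oocyte 11 being also the shallowest (134080 UMIs) and oocyte 10 not (342532 UMIs), and both groups had almost the same mean (643 ± 125 RPM in siRNA injected and 645 ± 246 RPM in non-injected oocytes). ATP5F1, subunit b of the stalk, was 3.24-fold lower than ATP5J over the 24 oocytes, with 100.4, 182 and 237 RPM in siRNA injected and 163, 209 and 270 RPM in non-injected oocytes. Of the small membrane subunits, ATP5J2 (subunit f) averaged 32.6 ± 11.3 RPM in siRNA injected and 42.4 ± 12.4 RPM in non-injected oocytes. C14orf2, a small proteolipid of the membrane part, was the lowest subunit of the complex, with 10.2, 28.0 and 44.5 RPM in siRNA injected and 3.25, 15.1 and 33.0 RPM in non-injected oocytes. Of the siRNA injected oocytes, 9 of 12 had more C14orf2 than the non-injected median, and the ranges overlapped.

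When siRNA injected and non-injected oocytes were compared gene by gene, no member passed the test. The whole table was fitted with limma on log2(RPM + 5), for the 7256 genes that averaged 10 RPM or more over the 24 oocytes, with Benjamini-Hochberg adjustment over all of them. To be called, a gene needed a fold change above 1.2 and an adjusted p below 0.05. Of 58 members tested, 0 were called higher and 0 lower, against 0.221% of all genes tested called in either direction (0.0827% higher and 0.138% lower). At an unadjusted p under 0.05 in limma there were 8 members, 5 higher and 3 lower, or 13.8% of those tested, beside 12.4% of all genes tested (6.73% higher and 5.72% lower), so the members' share was close to that of the table. The other tools, run on UMIs recovered from the RPM values, also called 0 members. With DESeq2, 7 of 67 members had an unadjusted p under 0.05, the lowest of the 30 adjusted p-values it gave was 0.0766 (NDUFA12), and 3.53% of all genes given an adjusted p were called (1.27% higher and 2.25% lower). With edgeR's quasi-likelihood test, 5 of the 37 members tested had an unadjusted p under 0.05, the lowest adjusted p was 0.125, and 1.17% of all genes tested were called (0.493% higher and 0.68% lower). For DESeq2 and edgeR the share of all genes at an unadjusted p under 0.05 is not given here, so these member counts have no background beside them.

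For members named here at an unadjusted p under 0.05 in limma, the log2 fold change (siRNA injected over non-injected, on the log2(RPM + 5) scale, ± SE) was 0.76 ± 0.25 for C14orf2 (adjusted p = 0.183), 0.51 ± 0.24 for UQCRQ (adjusted p = 0.378), 0.40 ± 0.18 for NDUFV3 (adjusted p = 0.35) and 0.37 ± 0.14 for NDUFB8 (adjusted p = 0.254). It was -0.48 ± 0.16 for NDUFA12 (adjusted p = 0.191), -0.37 ± 0.15 for UQCRC2 (adjusted p = 0.303) and -0.35 ± 0.14 for NDUFB6 (adjusted p = 0.284). They were spread over complexes I, III and V and did not sort by module: NDUFV3 and NDUFA12 share the N module, NDUFB8 and NDUFB6 the membrane arm, and UQCRQ and UQCRC2 complex III, each pair with values on opposite sides of 0. SDHA stood at -0.21 ± 0.17 (limma adjusted p = 0.646). Over the 58 tested members the values ran between -0.53 (NDUFS7) and 0.76, with a median of -0.06 beside 0.02 for all genes tested, and 24 were positive and 34 negative (41.4% positive, beside 53.1% of all genes tested). The median SE of a member was 0.22, so a typical 95% interval reached 0.43 to either side.

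**Figure D2:**
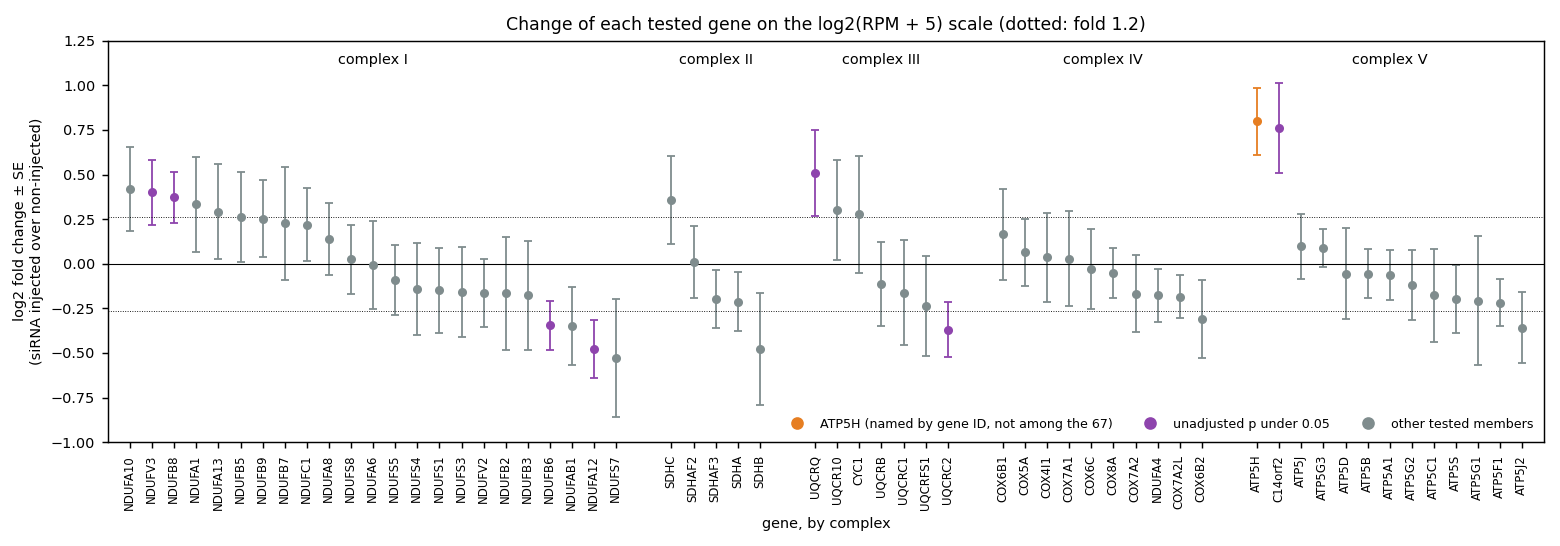
Log2 fold change of 57 of the 58 tested members and of ATP5H, siRNA injected over non-injected, on the log2(RPM + 5) scale from limma, ordered within each complex; bars are ± SE and dotted lines mark a fold of 1.2. Purple genes had an unadjusted p under 0.05 and stood on both sides of 0 in complexes I and III; ATP5H (orange) and C14orf2 had the highest values, 0.80 and 0.76.

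By complex, the median log2 fold change was 0.01 for complex I (12 of 24 tested subunits positive), -0.21 for complex II (1 of 3), -0.11 for complex III (3 of 7), -0.03 for complex IV (4 of 9) and -0.06 for complex V (3 of 11). In complex I the 14 tested accessory subunits of the membrane arm had a median of 0.22 (9 positive and 5 negative), while the 2 tested N-module core subunits NDUFV2 and NDUFS1 were at -0.16 and -0.15. All 4 head subunits of complex V lay between -0.18 (ATP5C1) and -0.06 (ATP5D, which was at 0.01 with DESeq2). None of these genes passed the test. The medians were small enough for the sign to depend on the setting: after rescaling by TMM that of complex I was -0.03 (and that of all genes tested -0.01), that of complex II was 0.07 with a minimum of 30 RPM and 0.03 with edgeR, and leaving out 1 oocyte gave -0.06 to 0.07 for complex I, -0.17 to 0.06 for III and -0.09 to 0.05 for IV.

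One further subunit of complex V was measured without a symbol. ATP5H, subunit d of the peripheral stalk, has only an Ensembl gene ID in the table (ENSBTAG00000021227), so the symbol rule did not pick it and it is not among the 67. Its name was taken from the study, which chose the gene on these same oocytes, so its difference is a description and no independent evidence. ATP5H ran 34.6, 81.9 and 118 RPM in siRNA injected and 25.4, 40.8 and 70.9 RPM in non-injected oocytes. Of the siRNA injected oocytes, 11 of 12 were above the non-injected median, the exception being oocyte 11, and the ranges overlapped between 34.6 and 70.9 RPM. Mean levels were 78.6 ± 22.6 RPM in siRNA injected and 43.4 ± 15.5 RPM in non-injected oocytes, and the log2 fold change was 0.80 ± 0.19 with a limma adjusted p of 0.052, just over the threshold of 0.05. With DESeq2 the adjusted p was 0.0134 and with edgeR 0.0424, so whether ATP5H passed depended on the tool. The 2 other stalk genes with rows were at 0.10 ± 0.18 (ATP5J, limma adjusted p = 0.874, with -0.01 in both edgeR and DESeq2) and -0.22 ± 0.13 (ATP5F1, limma adjusted p = 0.514).

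Summed per oocyte, the 60 structural subunits made up 0.505 ± 0.0850% of all RPM in siRNA injected oocytes and 0.519 ± 0.0655% in those non-injected. Complex I was the largest share of this sum, with 38.7 ± 4.56% in siRNA injected oocytes and 39.0 ± 3.53% in those non-injected, followed by complex V with 35.9 ± 4.79% in siRNA injected oocytes and 35.4 ± 5.35% in those non-injected. Complex IV held 16.7 ± 2.15% in siRNA injected oocytes and 16.6 ± 2.32% in those non-injected, complex III 5.79 ± 1.13% in siRNA injected oocytes and 6.11 ± 0.787% in those non-injected, and complex II 2.82 ± 0.470% in siRNA injected oocytes and 2.90 ± 0.669% in those non-injected. The make-up by complex was thus nearly the same in both groups, and these shares rest only on the subunits with a row.

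In RPM, complex I summed to 1433, 1830 and 3110 in siRNA injected oocytes and 1418, 2161 and 2549 in non-injected oocytes. Complex II summed to 90.8, 142 and 204 RPM in siRNA injected and 90.7, 149 and 240 RPM in non-injected oocytes. Complex III summed to 154, 315 and 404 RPM in siRNA injected and 225, 323 and 412 RPM in non-injected oocytes. The groups overlapped for these 3 complexes, but siRNA injected oocytes 11 and 8 were above, and none below, every non-injected oocyte for complex I, and siRNA injected oocytes 4, 9 and 1 were below every non-injected oocyte for complex III. Complex IV summed to 555, 811 and 1243 RPM in siRNA injected and 599, 828 and 1201 RPM in non-injected oocytes. Complex V summed to 1589, 1774 and 1925 RPM in siRNA injected and 1424, 1855 and 2140 RPM in non-injected oocytes. All 12 siRNA injected oocytes lay inside the range of the non-injected oocytes for complex V, with an SD of 106 RPM in siRNA injected and 240 RPM in non-injected oocytes. Group means differed by less than 1 SD for each complex: the log2 ratio of means (siRNA injected over non-injected) was -0.04 for complex I, -0.10 for II, -0.10 for III, -0.04 for IV and -0.03 for V. Without its most abundant member the ratio became 0.02 for complex I (without NDUFAB1), 0.13 for II (without SDHA) and 0.16 for III (without UQCRC2), so the sign of the summed ratio rested on 1 gene in each of these 3 complexes.

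**Figure D3:**
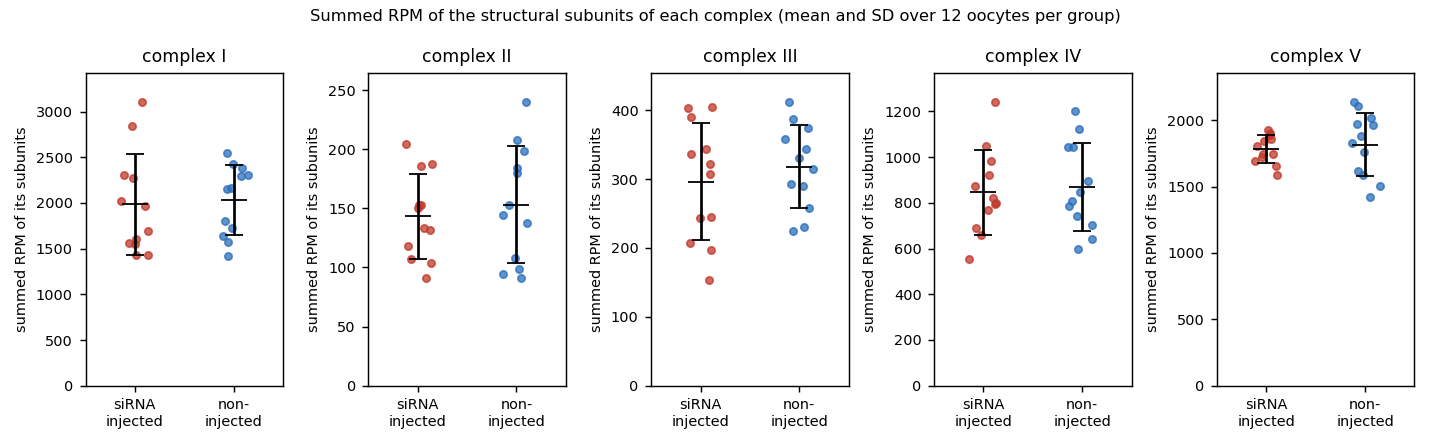
Summed RPM of the structural subunits of each complex in single oocytes, siRNA injected (left, red) and non-injected (right, blue); lines give the mean ± SD of 12 oocytes and axes start at 0. The groups overlap for each complex, and complex V differed 1.5-fold over the 24 oocytes where complex I differed 2.19-fold.

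Oocytes differed more from one another than the groups did. Over the 24 oocytes the sum differed 2.19-fold for complex I, 2.65-fold for II, 2.69-fold for III, 2.24-fold for IV and 1.5-fold for V, with coefficients of variation (CV) of 0.232, 0.288, 0.239, 0.217 and 0.101. Counting error alone gives CVs of 0.0437, 0.161, 0.112, 0.0668 and 0.0462 in the same order, so each sum varied more than the UMI counts required. Of the 40 members with a mean of at least 30 RPM, 10 had their highest level in siRNA injected oocyte 8 (25%, beside 11.8% of all 4640 genes at that level), 6 in non-injected oocyte 8 (15%, beside 3.25%) and 5 in siRNA injected oocyte 11 (12.5%, beside 5.95%). siRNA injected oocyte 8 also had the most genes above 0 (12093), siRNA injected oocyte 11 the most UMIs of its group (382077) and non-injected oocyte 8 the most UMIs of all (415554). The part of depth in these levels was not tested.

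Complexes I to IV moved together from oocyte to oocyte, and complex V followed them less closely. On the log2 scale, Pearson's r of the sums over 24 oocytes was 0.75 for I with II, 0.75 for I with III, 0.69 for I with IV, 0.64 for II with III, 0.68 for II with IV and 0.68 for III with IV, given as descriptions, since all sums of an oocyte share its library and depth. Spearman's rho for these 6 pairs was 0.62 to 0.76, and r without the 2 oocytes farthest from the median was 0.59 to 0.72. Complexes I and II, for example, kept r = 0.68 within siRNA injected and 0.87 within non-injected oocytes. Complex V gave 0.14 with I, 0.10 with II, 0.16 with III and 0.06 with IV. Within siRNA injected oocytes these values were 0.44, 0.37, 0.50 and 0.29 in the same order, and within non-injected oocytes -0.02, 0.01, -0.05 and -0.05, so the sum of complex V followed the others only loosely in siRNA injected oocytes and hardly at all in those non-injected, a difference that was not tested. When ATP5J was left out of its sum, complex V gave 0.77 with I, 0.65 with II, 0.59 with III and 0.69 with IV, with 0.76 within siRNA injected and 0.30 within non-injected oocytes for III, so the low r of complex V rested on 1 gene, which held 36.2 ± 6.86% of its sum in siRNA injected oocytes and 34.6 ± 10.5% in those non-injected. The alternative without ATP5J was chosen after the values were seen.

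The summed level of complexes I to IV was compared with other measures of the same oocytes. Its r was 0.10 with the summed mitochondrially encoded subunits, 0.34 with ribosomal protein genes, 0.20 with UMIs, 0.49 with genes above 0 and 0.53 with the summed cumulus and granulosa markers. For the mitochondrially encoded subunits it was -0.10 within siRNA injected and 0.43 within non-injected oocytes. For the cumulus and granulosa markers it was 0.75 within siRNA injected and 0.21 within non-injected oocytes, and that for genes above 0 was 0.71 within siRNA injected and 0.33 within non-injected oocytes. The marker sum was led by STAR and HAS2, and 7 of its 20 genes passed the minimum used for testing. Whether cumulus RNA or depth had a part in the shared movement was not tested.

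Single genes gave a finer picture. Over the 780 pairs of the 40 members with at least 30 RPM, with group means removed, the median r was 0.18, beside 0.00 over all pairs of the 4640 genes at that level. An r over 0.5 was found for 13.7% of member pairs and 3.60% of all pairs, and an r under -0.3 for 6.67% of member pairs and 13.8% of all pairs. Pairs within a complex (median r = 0.20, 195 pairs) were little different from pairs across complexes (0.16, 585 pairs). Within complex I the median was 0.27, within complex IV 0.20 and within complex V 0.03. Shared movement thus ran across complexes about as much as within them, and it was least within complex V.

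The members with the highest median r to the others were ATP5C1 (0.45), NDUFS5 (0.41), COX6C (0.39), SDHC (0.39), NDUFA1 (0.38) and NDUFAB1 (0.37), which come from complexes I, II, IV and V. Of the pairs, all picked after their values were seen, NDUFAB1 had r = 0.85 with ATP5C1, 0.79 with NDUFA1, 0.78 with NDUFA6 and 0.77 with COX6C. SDHC and ATP5A1 gave 0.84, and COX6C and COX7A2 gave 0.83. NDUFAB1 and ATP5C1 held within each group (0.88 within siRNA injected and 0.80 within non-injected oocytes), as did SDHC and ATP5A1 (0.86 within siRNA injected and 0.85 within non-injected oocytes), whereas COX6C and COX7A2 were closer within siRNA injected (0.93) than within non-injected oocytes (0.56), a difference that was not tested. At the other end were ATP5J (median r = -0.26), SDHAF2 (-0.14), COX6B2 (-0.11) and NDUFB6 (-0.05). ATP5J had an r under -0.3 with 15 of the other 39 members, including -0.59 with UQCRQ and -0.51 with ATP5C1, its own complex's central shaft. NDUFB6, the other abundant subunit of complex I, went with ATP5F1 (0.55), with 0.70 within siRNA injected and 0.25 within non-injected oocytes. ATP5H had a median r of -0.13 with these members, from -0.45 with SDHA to 0.40 with ATP5J, another gene of its stalk. Its median r with all genes is not given here.

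**Figure D4:**
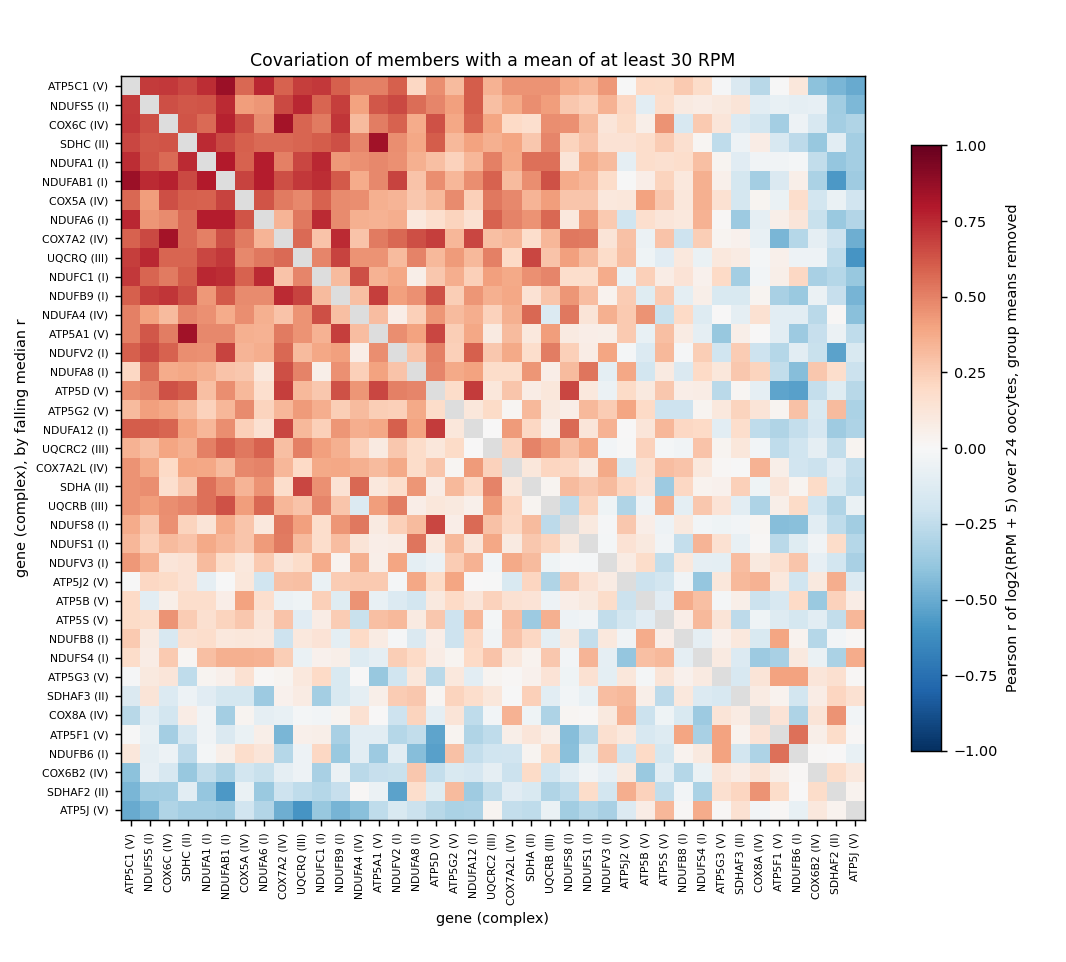
Pearson's r of log2(RPM + 5) between 39 of the 40 members with a mean of at least 30 RPM over 24 oocytes, with group means removed, ordered by falling median r and with the complex in brackets. A block of positive r at the upper left mixes complexes I to V, and ATP5J, SDHAF2 and COX6B2 at the lower right are mostly negative with it.

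Variation relative to counting error was highest in several of these same genes. At the same CV this ratio rises with the level of a gene, and the ranks given here are not matched for level. The within-group CV divided by the CV that counting alone gives was 4.87 for NDUFAB1 (rank 66 of 7256 genes tested), 3.93 for ATP5J (rank 118), 2.99 for COX7A2L (rank 306), 2.95 for NDUFA6 (rank 318), 2.90 for COX7A2 (rank 331) and 2.87 for ATP5C1 (rank 339). The median of the tested members was 1.42, beside 1.37 for all genes tested, and for those of at least 30 RPM it was 1.60, beside 1.54. A typical member therefore varied like a typical gene of the table. NDUFB8 (1.01) and NDUFA12 (1.02) varied hardly more than counting alone. Their within-group CVs were 0.193 and 0.240, near the 0.217 of the far more abundant COX7A2L, while that of NDUFAB1 was 0.452.

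**Figure D5:**
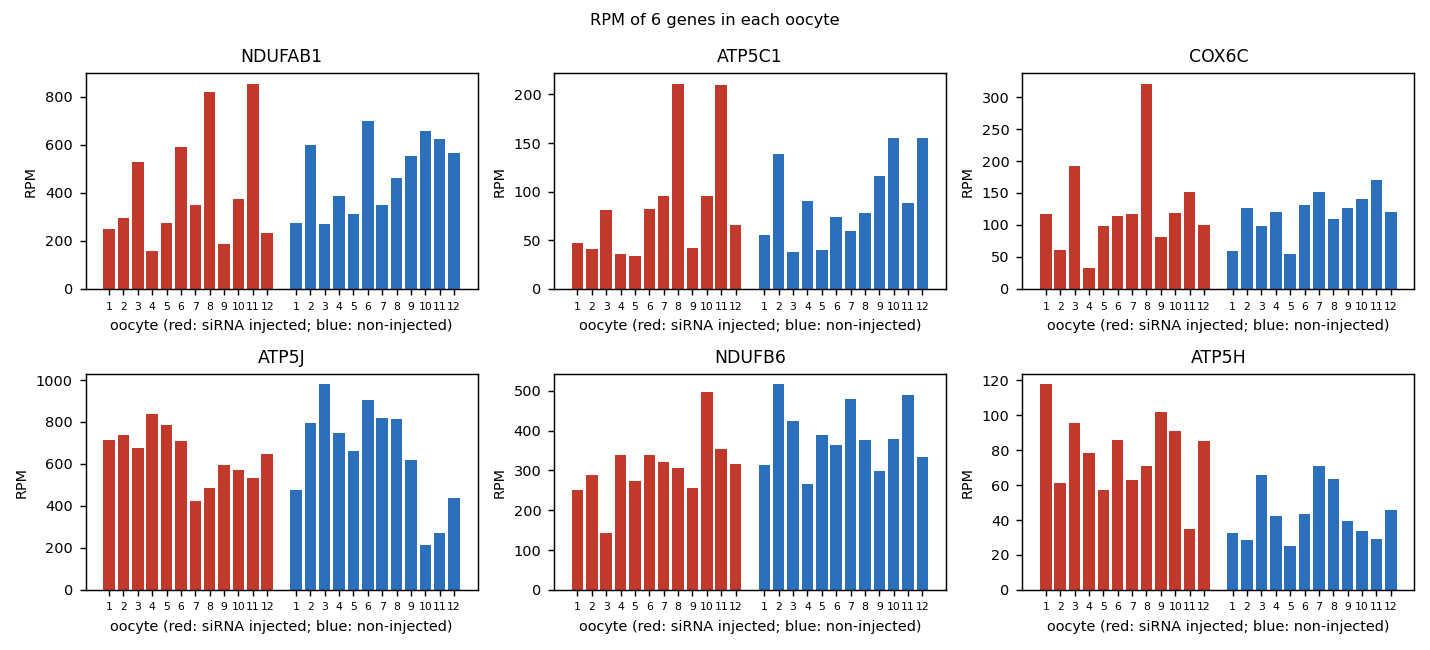
RPM of 6 genes in each oocyte, numbered within siRNA injected (red, left) and non-injected (blue, right) oocytes. NDUFAB1, ATP5C1 and COX6C peak in siRNA injected oocytes 8 and 11 or 8 alone, ATP5J is lowest in non-injected oocytes 10 and 11, and ATP5H is at 57.5 RPM or more in 11 of 12 siRNA injected oocytes.

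As a sum, the mitochondrially encoded partners of these subunits were far more abundant, although ND4L was lower than several nuclear members. The 11 mitochondrially encoded genes with a row took 3.23 ± 1.01% of all RPM in siRNA injected oocytes and 2.76 ± 0.828% in those non-injected. This was 6.57 ± 2.28 times the nuclear subunits' sum in siRNA injected oocytes and 5.29 ± 1.23 times in those non-injected. The ratio ran 3.12, 6.78 and 11.7 in siRNA injected oocytes and 3.68, 5.23 and 8.02 in non-injected oocytes, so the groups overlapped. With limma 0 of the 11 were called (1 with DESeq2), 5 had an unadjusted p under 0.05, all higher, and the median log2 fold change was 0.34, beside -0.06 for the nuclear members. COX1, the catalytic subunit of complex IV, averaged 2158 ± 517 RPM in siRNA injected and 1476 ± 452 RPM in non-injected oocytes, with a log2 fold change of 0.57 ± 0.15 (limma adjusted p = 0.068, DESeq2 adjusted p = 0.0278). With limma it was called once siRNA injected oocyte 3 (adjusted p = 0.0388) or non-injected oocyte 9 (adjusted p = 0.034) was left out. The nuclear subunits of complex IV that surround it had a median of -0.03. Whether the mitochondrial and nuclear sets differed in their change was not tested.

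The factors that build the complexes were measured too. Rows were found for 15 complex I, 5 complex III, 16 complex IV and 3 complex V assembly factors, of which 8, 4, 9 and 1 were tested with limma, 0 were called, 0 had an unadjusted p under 0.05, and DESeq2 called 0. Their median log2 fold changes were 0.02 for complex I, 0.01 for complex III and -0.16 for complex IV factors (after rescaling by TMM, -0.02 for complex I and -0.03 for complex III factors), and ATPAF2, which helps to assemble the head of complex V, was at 0.23. The most abundant were TTC19, a complex III factor (180 ± 66.8 RPM in siRNA injected and 176 ± 30.1 RPM in non-injected oocytes), COX16, a complex IV factor (102 ± 18.8 RPM in siRNA injected and 120 ± 25.2 RPM in non-injected oocytes), and the complex I factors TMEM126B (77.2 ± 27.8 RPM in siRNA injected and 80.4 ± 21.9 RPM in non-injected oocytes) and NDUFAF4 (74.1 ± 30.9 RPM in siRNA injected and 73.9 ± 22.0 RPM in non-injected oocytes).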

How the data were processed

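RNA of 24 single oocytes (12 siRNA injected, 12 non-injected) was profiled by CEL-seq2. The authors deposited 1 table of normalized RPM values per gene, which was used as deposited; the submitters' processing notes name the UMD3.1 genome build, and the aligner and counter are not given in the sources used here. Each RPM value returned a whole number of UMIs (within 0.001) once the saturation correction for 4048 possible identifiers was undone, in 100% of values of every oocyte; depth was 134080 to 415554 UMIs per oocyte.

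Genes averaging 10 RPM or more were fitted with limma 3.58.1 (R 4.3.3) on log2(RPM + 5) with a mean-variance trend, two-sided, without covariates, and p-values were Benjamini-Hochberg adjusted over all genes tested. edgeR 4.0.16 and DESeq2 1.42.0 were run on the recovered UMIs as alternatives, because the deposited unit is RPM, although the study's own test was on counts. DESeq2 gives no adjusted p to genes of low counts. Other alternatives were pseudocounts of 1 and 20 RPM, a minimum of 30 RPM or none, rescaling by TMM, depth as a covariate, a replicate block and leaving out each oocyte. Sums, shares and correlations were given without p-values (Python 3.11.15, numpy 2.4.6, pandas 2.3.3). The limma fit was tested on simulated data with known changes, drawn with the same spread setting for every gene. It called 34.3% of 1.5-fold, 73.1% of 2-fold and 87.9% of 3-fold changes, and 7 unchanged genes, among 7187 genes tested. Changes of 1.5-fold or less would thus mostly be missed.

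Members were taken by symbol, and NDUFA4 and NDUFA4L2 were placed in complex IV. Given in full were ATP5H and SDHA, in each complex the 2 subunits of highest mean, the lowest of at least 10 RPM and the 2 of smallest p, and the isoform families; the others are given by role, and further genes and pairs were chosen after their values were seen. Values of 1 member are not reported here, although it is included in the counts, sums and medians. The members, lists and tests were chosen with earlier results of these data known. The floor for a count of 0 covers counting error only. The 95% interval rests on the limma SE, which also holds the spread between oocytes. The reference given for gene names is of another build, so no coordinates or sequences are printed.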

Additional observations from a re-analysis of the deposited data

How the results depend on the processing

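Under limma, edgeR and DESeq2, and with every other pseudocount, minimum, rescaling, depth covariate or omitted oocyte tried, 0 members were called. Of 25 named genes whose log2 fold change was recomputed under each setting, 23 kept their sign throughout, and so did 6 of 13 medians. The exceptions among genes were ATP5D (0.014 with DESeq2, -0.20 to 0.085 with 1 oocyte left out, above 0 without siRNA injected oocyte 2 or 4 or non-injected oocyte 10) and ATP5J (-0.015 with DESeq2, -0.0077 with edgeR, -0.034 to 0.16 with 1 oocyte left out, under 0 without non-injected oocyte 10 or 11). The 7 medians were those of complexes I to IV, of all genes tested and of the complex I and III assembly factors. Members at an unadjusted p under 0.05 numbered 8, 5 with edgeR (which tested 37) and 5 to 9 over the 24 fits that left out 1 oocyte, the lowest without non-injected oocyte 1, 5 or 8. The share of all genes at that threshold is given for the main fit only. The median log2 fold change of the tested members was -0.10 to -0.02 over the alternatives and -0.12 to -0.03 with 1 oocyte left out. The numbers of the oocytes did not pair them (r over 0.1 for 2 of 12 pairs), and with a replicate block 0 members were called, 8 had an unadjusted p under 0.05, and calls over the table went to 11 with the block, against 16 without it. Calls over the whole table varied widely: 52 with a minimum of 30 RPM, 0 with no minimum, 9 with a pseudocount of 1 RPM, 12 after TMM, 31 with depth as a covariate, 0 to 37 with 1 oocyte left out, 50 with edgeR and 119 with DESeq2. The adjusted p of ATP5H was 0.0341 with a minimum of 30 RPM, 0.0438 with depth as a covariate, 0.0424 with edgeR and 0.0134 with DESeq2, but 0.0969 with no minimum, 0.0633 after TMM, 0.0664 with a replicate block, 0.0536 and 0.0503 with pseudocounts of 1 and 20 RPM, and 0.0295 to 0.0854 with 1 oocyte left out, under 0.05 without siRNA injected oocyte 4, 5 or 11 or non-injected oocyte 3 or 7; its log2 fold change was 0.64 to 0.89 throughout. COX1 was called with DESeq2, with depth as a covariate (adjusted p = 0.0438) and without siRNA injected oocyte 3 (0.0388) or non-injected oocyte 9 (0.034), and its adjusted p was 0.0522 to 0.155 under the other settings. Of the 9 members under 10 RPM, 8 were tested only with no minimum and by DESeq2, and NDUFA5 also in 5 fits that left out 1 oocyte. With 1 oocyte left out, the log2 ratio of the complex IV sums was between -0.10 and 0.01, and those of the other complexes were under 0. Adding ATP5H to complex V, an alternative chosen after seeing the data, brought its ratio to 0.00.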

Other observations

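Genes that feed the chain and export its ATP were expressed beside it. Of 18 tricarboxylic acid cycle and pyruvate genes with a row, 12 were tested with limma and 0 were called (0 at an unadjusted p under 0.05, and 0 called with DESeq2), the log2 fold change was above 0 for 3 and under 0 for 9, and its median was -0.16, beside 0.02 for all genes tested. Citrate synthase (CS), which starts the cycle, was the most abundant at 1104 ± 167 RPM in siRNA injected and 1265 ± 207 RPM in non-injected oocytes (SD, n = 12 each), more than any nuclear subunit of the chain, followed by SUCLG2, a subunit of succinyl-CoA ligase, at 495 ± 67.4 RPM in siRNA injected and 504 ± 101 RPM in non-injected oocytes. Among carriers, 7 of 9 were tested and 0 called with limma or DESeq2, and 1, VDAC1, had an unadjusted p under 0.05 in limma. The ADP/ATP exchanger SLC25A6 averaged 353 ± 87.3 RPM in siRNA injected and 299 ± 77.1 RPM in non-injected oocytes, and VDAC1, the outer membrane channel, 247 ± 47.4 RPM in siRNA injected and 306 ± 32.1 RPM in non-injected oocytes. For VDAC1, 1 of 12 siRNA injected oocytes was above the non-injected median (a log2 fold change of -0.32 ± 0.11, limma adjusted p = 0.202).

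Of 14 regulators of mitochondrial biogenesis, 10 were tested and 0 called with limma or DESeq2, and 2 had an unadjusted p under 0.05 in limma, POLRMT higher and PPARGC1A lower. TFB1M, a mitochondrial rRNA methyltransferase, was the most abundant and nearly the same in both groups (266 ± 33.8 RPM in siRNA injected and 264 ± 37.7 RPM in non-injected oocytes). PPARGC1A, a coactivator that drives nuclear genes of the chain, averaged 99.6 ± 30.2 RPM in siRNA injected and 140 ± 77.0 RPM in non-injected oocytes (limma adjusted p = 0.362). POLRMT, the mitochondrial RNA polymerase, averaged 26.5 ± 11.9 RPM in siRNA injected and 13.2 ± 8.13 RPM in non-injected oocytes, with 11 of 12 siRNA injected oocytes above the non-injected median (log2 fold change 0.86 ± 0.28, limma adjusted p = 0.166). TFAM, which packages mitochondrial DNA, and GABPA, a factor known in mammals to bind promoters of the chain's genes, were both under 10 RPM on average in each group and were not tested.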
